A study of Mus musculus with 3 samples.

Results

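Most of the genes described here encode ATP-dependent chromatin remodellers, their partner subunits, or enzymes that add methyl groups to histone lysines or remove them. They were chosen by symbol, as the Chd, Smarc, Arid, Kmt, Setd and Kdm genes, and 67 of the 17209 genes listed in at least 1 library met the rule. Of these, 65 passed a filter of a mean of at least 1 CPM, a read count scaled to library size, over the 3 libraries, among 12955 genes that passed it in all. Kdm4d, a lysine demethylase gene, had 0, 0 and 1 counts in IWR1, Y27 and NT, and the pseudogene Smarca5-ps had 0, 1.77 and 0.99 expected counts. Both lay under the floor of 3 counts in every library and were compared no further.

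The RNA came from mouse epiblast stem cells (EpiSCs) of strain 129, labelled as passage 1. These pluripotent cells resemble the epiblast after implantation. All cells had been kept on gelatin in serum with IWR1, a tankyrase inhibitor that dampens Wnt signalling by stabilising Axin, and Y27, a small-molecule kinase inhibitor. The 3 libraries were IWR1 (2 µM for 12 h), Y27 (0.5 µM for 12 h) and NT, in which both inhibitors had been withdrawn overnight. The labels do not say whether a period without inhibitor preceded the treatments, and the dose of Y27, as labelled, is low for this inhibitor. Each group had 1 library, so no difference below has a replicate check or a test.

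Chromatin remodellers use the energy of ATP to slide, evict or exchange nucleosomes, and they fall into the SWI/SNF (BAF), ISWI, CHD and INO80 families by the build of their ATPase. Lysine methyltransferases, most of them with a SET domain, write marks such as H3K4, H3K36 and H4K20 methylation, and lysine demethylases, which are flavin-dependent in the Kdm1 family and of the Jumonji type in most others, erase them. In pluripotent cells a BAF complex built on Smarca4 and the NuRD complex built on Chd4 are known to shape enhancers and to govern exit from pluripotency.

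The ATPases of the 4 pairs below carry the same catalytic motif and differed in how far their mRNAs stood apart between libraries, so a stretch around that motif is shown for each. Each is 57 bases of the coding sequence, from GENCODE vM21 on GRCm38, 5′ to 3′ in the sense direction. The capitals mark 9 codons, of which the second to the fifth spell the DExH box, which helps to bind and hydrolyse ATP. Positions count from 1 at the first base of the start codon. Smarca1 (chromosome X, coding bases 925 to 981) and Smarca5 (chromosome 8, bases 901 to 957) are the ISWI ATPases, and Smarca2 (chromosome 19, bases 2566 to 2622) and Smarca4 (chromosome 9, bases 2623 to 2679) those of BAF. Chd1 (chromosome 17, bases 1816 to 1872) and Chd9 (chromosome 8, bases 2968 to 3024) are set beside Chd3 (chromosome 11, bases 2785 to 2841) and Chd4 (chromosome 6, bases 2578 to 2634), the CHD ATPases of NuRD.
Smarca1: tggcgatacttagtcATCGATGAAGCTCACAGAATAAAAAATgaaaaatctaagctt
Smarca5: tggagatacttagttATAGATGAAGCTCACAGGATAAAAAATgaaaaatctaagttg
Smarca2: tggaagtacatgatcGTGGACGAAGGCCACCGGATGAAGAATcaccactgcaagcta
Smarca4: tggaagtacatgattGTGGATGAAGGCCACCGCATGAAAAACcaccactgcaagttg
Chd1: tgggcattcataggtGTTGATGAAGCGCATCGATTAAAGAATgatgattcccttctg
Chd9: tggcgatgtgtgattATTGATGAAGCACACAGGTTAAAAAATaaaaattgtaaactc
Chd3: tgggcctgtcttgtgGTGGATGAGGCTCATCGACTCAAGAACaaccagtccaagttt
Chd4: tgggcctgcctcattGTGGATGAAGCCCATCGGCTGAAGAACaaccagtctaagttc

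The motif spelled by Smarca1 and Smarca5 held 29.6% G and C bases in each gene, against 55.6% in Smarca2 and 51.9% in Smarca4. Chd9 held 29.6% and Chd1 37.0%, against 51.9% in Chd3 and 55.6% in Chd4. Smarca1 and Smarca5 shared 51 of the 57 bases, Smarca2 and Smarca4 shared 50, and Smarca5 and Smarca4 shared 38. The GC-poor and GC-rich pairs kept that contrast over the whole coding sequence, in which GC content was 42.1% in Smarca1 and 42.0% in Smarca5, against 53.1% in Smarca2 and 56.6% in Smarca4. It was 44.8% in Chd1 and 46.7% in Chd9, against 56.1% in Chd3 and 52.2% in Chd4. The pairs do not split by difference in the same way. Smarca2, in a pair that is GC-rich by coding sequence, had 1.89-fold (1.34 to 2.69) the NT counts in Y27. The transcript GC content used for Smarca2 in the trends further on was lower, at 47.1%. These genes were picked with their differences known.

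The libraries held 5607725, 5459332 and 5767550 expected counts in IWR1, Y27 and NT, and the genes described here took 0.971%, 1.03% and 0.877% of them. All 8 epiblast markers were found, with a summed level of 3013 CPM in IWR1, 2188 CPM in Y27 and 2447 CPM in NT. Pou5f1 (1318, 1163 and 1462 CPM) made the largest part of that sum and was highest in NT. Against NT, 6 of the 8 were higher and 2 lower in IWR1, and 5 higher and 3 lower in Y27. Foxd3 (53.1, 13.6 and 7.96 CPM) stood furthest above NT in both. Summed markers of fibroblasts (7 of 7 found) stood at 148, 90.6 and 207 CPM, of trophoblast (5 of 6, Elf5 at 0) at 89.0, 99.5 and 179 CPM, and of neural cells (4 of 4, Pax6 at 0 in IWR1 and NT) at 308, 174 and 281 CPM. The fibroblast sum was mostly Acta2 (75.2, 28.8 and 86.8 CPM) and Col1a1 (54.7, 31.0 and 82.2 CPM), both lowest in Y27. Pdgfrb (1.97, 12.0 and 13.8 CPM) and Pdgfra (1.61, 5.74 and 4.78 CPM) were instead lowest in IWR1. Within the trophoblast sum, Cdx2 (2.50, 68.8 and 48.3 CPM) and Krt8 (75.4, 23.8 and 119 CPM) went different ways. Nes (263, 155 and 240 CPM) made most of the neural sum, with Sox1 at 0.179, 0.896 and 0.531 CPM. Extraembryonic endoderm markers (4 of 6; Afp and Ttr at 0, Gata4 at 0 in IWR1 and Sox7 at 0 in NT) summed to 1.79, 5.06 and 3.71 CPM, and those of endothelium and blood (4 of 6, Ptprc and Hbb-bh1 at 0) to 6.07, 6.63 and 6.54 CPM. The nuclear long noncoding RNA Malat1 had 628 CPM in IWR1, 857 CPM in Y27 and 264 CPM in NT, and its counts were 2.38-fold (95% interval 2.24 to 2.53) and 3.25-fold (3.07 to 3.45) those of NT. The part of these markers and of nuclear RNA in the results below was not tested.

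Levels are given as FPKM, counts scaled to library size and per kilobase of transcript, which can be compared between genes. Folds are ratios of library-scaled counts with exact binomial 95% intervals for counting error only. Each log2 difference is a log2 ratio of CPM values raised by a pseudocount of 1 CPM, and it is too small for low genes. Genes past 1.5-fold or 2-fold are counted on that log2 scale. In these bulk samples, fewer cells of a type and less RNA per cell cannot be told apart. IWR1 and Y27 are both set against the same NT library, so a low or high value in NT enters both comparisons.

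Many of these genes were higher in the inhibitor-treated libraries than in NT, and nearly none were lower by as much. Against NT, 12 of 65 passed 1.5-fold higher in IWR1, beside 10.8% of all genes compared, and 1 (Arid3b) was at least 1.5-fold lower, beside 6.37% of all genes. Chd9 and Smarca1 were at least 2-fold higher in IWR1 (2.29% of all genes), and 0 of 65 were 2-fold lower (2.25%). In Y27, 18 of 65 were at least 1.5-fold higher than in NT, beside 14.9% of all genes, and 0 were 1.5-fold lower, beside 5.53%. There 9 were at least 2-fold higher (5.58% of all genes) and 0 were 2-fold lower (1.34%). The median log2 difference of the 65 genes was 0.14 in IWR1 over NT and 0.15 in Y27 over NT, against -0.00 and -0.02 over all genes, and in each comparison 44 of 65 lay above 0, beside 49.7% of all genes in IWR1 over NT and 48.2% in Y27 over NT. With the trends described further on taken out, the Y27 median was -0.02 for length alone, 0.32 for GC content alone and 0.18 for both.

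**Figure D1:**
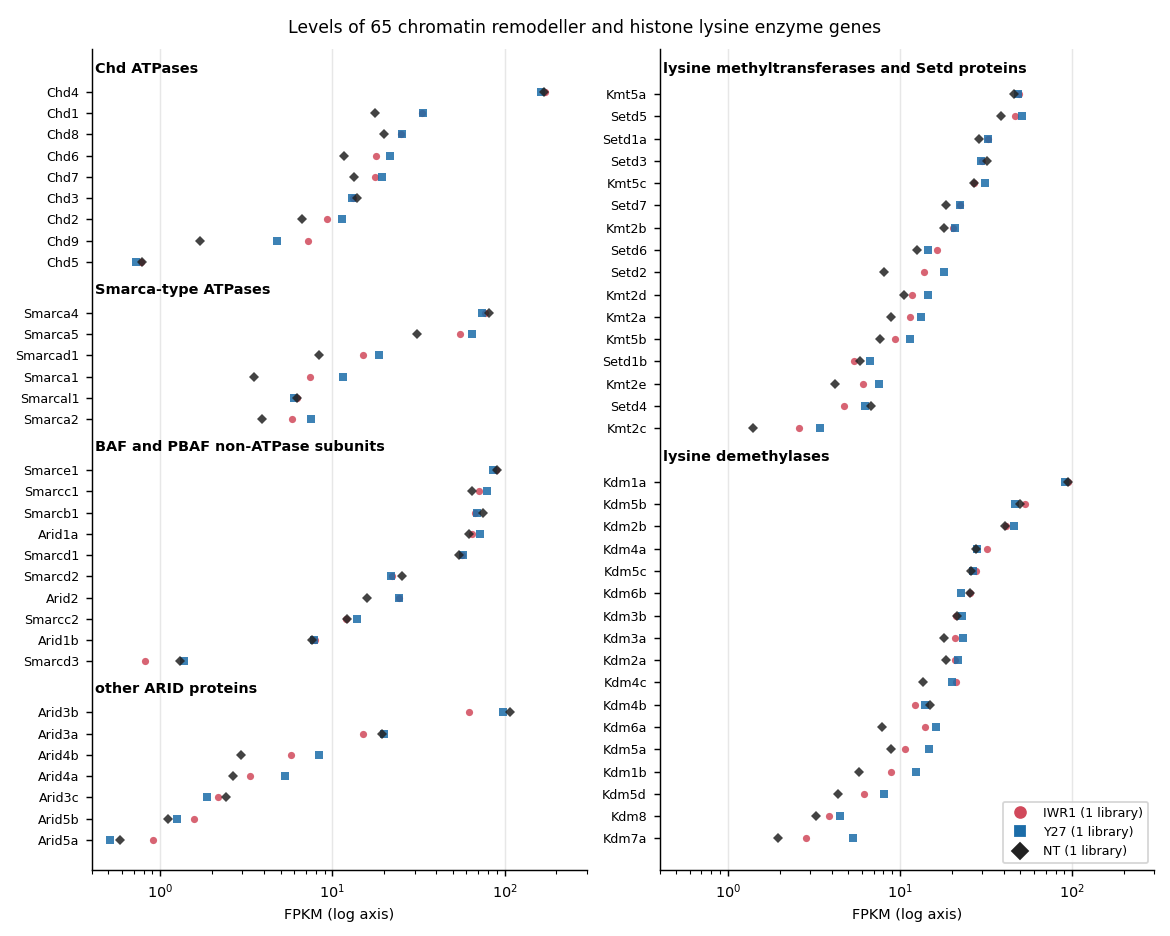
Levels of the 65 genes past the level filter, in FPKM on a log axis, by the role of the encoded protein; each gene has 1 point per library (IWR1 circles, Y27 squares, NT diamonds). NT lies left of both other libraries for Chd9, Smarca1, Smarca5, Arid4b and Kmt2c, and the 3 points nearly coincide for Chd4 (173, 163 and 169 FPKM), Kdm1a and Smarce1.

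The 9 Chd genes encode ATPases with paired chromodomains and had a median log2 difference of 0.37 in IWR1 over NT and 0.46 in Y27 over NT. Of the 9, 3 were at least 1.5-fold higher in IWR1 (10.8% of all genes) and 4 in Y27 (14.9%). Chd9, a CHD7-related remodeller, had 7.22 FPKM in IWR1, 4.74 FPKM in Y27 and 1.71 FPKM in NT. IWR1 was the highest of the 3 libraries and NT the lowest. Its scaled counts were 4.15-fold (3.38 to 5.14) those of NT in IWR1 and 2.66-fold (2.14 to 3.33) in Y27, and the IWR1 value was the highest log2 difference among the 65 genes in that comparison, at 2.00.

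Chd1, whose protein binds methylated H3K4 and is known to keep the chromatin of mouse embryonic stem cells open, had 33.1 FPKM in IWR1, 33.8 FPKM in Y27 and 17.7 FPKM in NT. The inhibitor-treated libraries were nearly level and NT stood below both. Counts were 1.83-fold (1.68 to 2.00) those of NT in IWR1 and 1.83-fold (1.68 to 1.99) in Y27. Chd6 had 17.96, 21.5 and 11.7 FPKM in IWR1, Y27 and NT, with folds over NT of 1.51 (1.37 to 1.66) in IWR1 and 1.77 (1.61 to 1.94) in Y27. Chd2, the nearest relative of Chd1, had 9.31, 11.3 and 6.66 FPKM and passed 1.5-fold in Y27 alone of the treated libraries, at 1.63-fold (1.42 to 1.86) against 1.37-fold (1.19 to 1.58) in IWR1. Chd7, mutated in CHARGE syndrome in humans, and Chd8, a known negative regulator of β-catenin, were under 1.5-fold in both comparisons.

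The NuRD ATPase gene Chd4 had the highest level of all Chd genes, with 173 FPKM in IWR1, 163 FPKM in Y27 and 169 FPKM in NT. Its 3 libraries lay close together, with a fold of 1.00 (0.969 to 1.04) for IWR1 over NT and a 1.08-fold lower value in Y27 (1.04 to 1.12). Chd3, its paralogue, had 13.1, 12.9 and 13.9 FPKM in IWR1, Y27 and NT, with NT highest by a narrow margin and intervals that held 1 in IWR1 (1.09-fold lower, 0.964 to 1.22) and in Y27 (1.13-fold lower, 0.999 to 1.27). Chd5, known mainly from neurons, was low at 0.77, 0.72 and 0.78 FPKM.

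The 6 Smarca-type ATPase genes past the filter had the highest medians of any role, 0.67 on the log2 scale in IWR1 over NT and 0.93 in Y27 over NT. At least 1.5-fold higher were 3 of 6 in IWR1 and 4 of 6 in Y27, beside 10.8% and 14.9% of all genes, and beside 26.9% and 40.7% of genes with under 45.8% GC, where Smarca1, Smarca5 and Smarcad1 lie. Smarca1, an ISWI ATPase, had 7.38 FPKM in IWR1, 11.6 FPKM in Y27 and 3.49 FPKM in NT. Y27 was highest and NT lowest, with 2.07-fold (1.58 to 2.73) the NT counts in IWR1 and 3.18-fold (2.47 to 4.12) in Y27. Its log2 difference in IWR1 over NT, 1.00, sat on the 2-fold line.

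Smarca5, the more abundant ISWI ATPase gene, had 54.9 FPKM in IWR1, 64.9 FPKM in Y27 and 30.9 FPKM in NT. NT was again the lowest, with folds over NT of 1.74 (1.60 to 1.90) in IWR1 and 2.01 (1.85 to 2.19) in Y27. Smarca5 had fractional expected counts in Y27 and NT, and Smarca5-ps, a pseudogene named for it, had fractional counts in the same libraries, so the Smarca5 count may be split between them and is uncertain to that small extent. Smarcad1, a remodeller known for keeping heterochromatin through replication, had 15.1, 18.8 and 8.38 FPKM in IWR1, Y27 and NT, with folds over NT of 1.77 (1.51 to 2.07) and 2.12 (1.82 to 2.48).

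The BAF ATPases Smarca4 (Brg1) and Smarca2 (Brm) differed from each other in level and in direction. Smarca4 had 77.4 FPKM in IWR1, 74.4 FPKM in Y27 and 81.8 FPKM in NT. NT was the highest library, with Smarca4 counts 1.08-fold lower in IWR1 (1.02 to 1.13) and 1.15-fold lower in Y27 (1.09 to 1.21). Smarca2 had 5.79, 7.50 and 3.91 FPKM in IWR1, Y27 and NT, and there NT was the lowest. Folds over NT for Smarca2 were 1.503 (1.05 to 2.17) in IWR1 and 1.89 (1.34 to 2.69) in Y27, and on the log2 scale with the pseudocount it did not pass 1.5-fold in IWR1, at 0.54. The table lengths of Smarca2, 2428 bases in IWR1, 2419 in Y27 and 2351 in NT, are an average over 2 transcripts. They are shorter than the 4752 bases of the full Smarca2 coding sequence, from which the stretch above was read, so the FPKM and trend-removed values of Smarca2 rest in part on a transcript too short to hold it. Smarcal1, an annealing helicase at stalled replication forks, had 6.25, 6.02 and 6.20 FPKM.

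The 10 other BAF and PBAF subunit genes lay around 0, with medians of -0.01 in IWR1 over NT and 0.02 in Y27 over NT on the log2 scale. Of them 1, Arid2, was 1.5-fold higher in IWR1 (10.8% of all genes) and 0 in Y27 (14.9%). Arid2, the ARID subunit of PBAF, had 24.5 FPKM in IWR1, 24.5 FPKM in Y27 and 15.8 FPKM in NT, which put NT below both, at folds of 1.52 (1.39 to 1.66) and 1.48 (1.35 to 1.62). Arid1a, the ARID subunit of canonical BAF, had 64.9, 72.4 and 62.3 FPKM, and its less abundant paralogue Arid1b had 7.97, 7.79 and 7.66 FPKM in IWR1, Y27 and NT.

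Core subunits Smarce1 (88.8, 85.6 and 90.5 FPKM in IWR1, Y27 and NT) and Smarcb1 (67.2, 69.4 and 74.8 FPKM) were abundant in every library. Smarcc1, the scaffold subunit of the BAF complex of mouse embryonic stem cells, had 71.3, 79.2 and 65.2 FPKM, 1.07-fold (1.01 to 1.14) the NT counts in IWR1 and 1.16-fold (1.10 to 1.23) in Y27. Its paralogue Smarcc2 stood lower in level, at 11.9, 13.9 and 12.2 FPKM. Among the Smarcd genes, Smarcd1 had 56.6, 57.3 and 54.1 FPKM, Smarcd2 had 22.2, 22.0 and 25.5 FPKM, and Smarcd3 had 0.82, 1.37 and 1.3 FPKM from 8, 13 and 13 counts. The order of level, Smarcd1 over Smarcd2 over Smarcd3, was the same in each library.

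**Figure D2:**
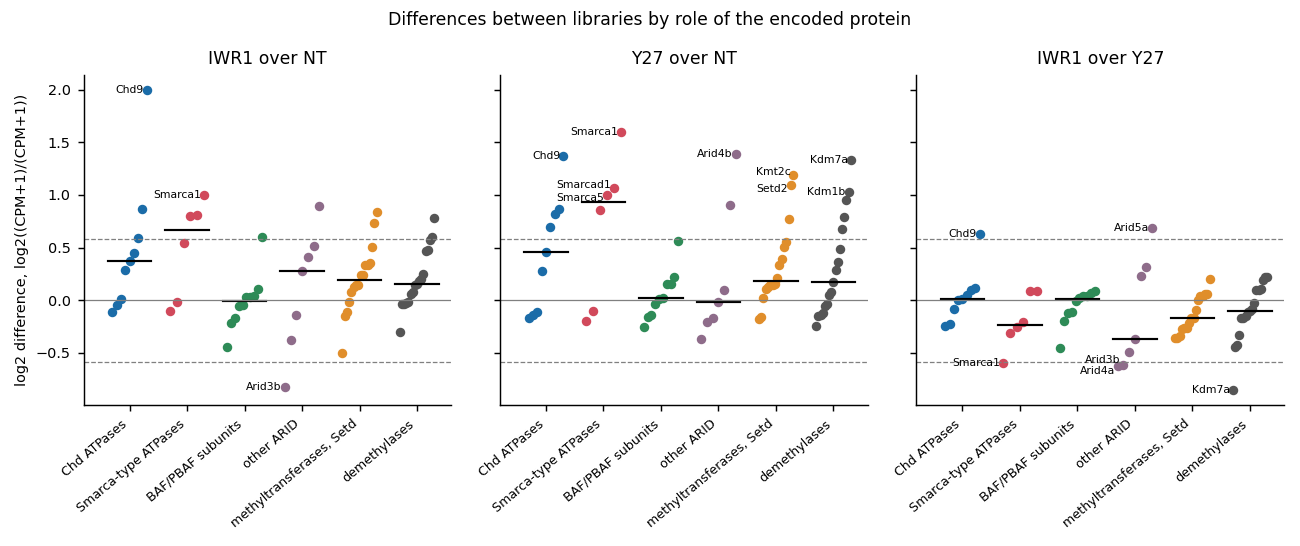
Log2 differences (CPM + 1) of the 65 genes by role in IWR1 over NT, Y27 over NT and IWR1 over Y27; each point is a gene, black bars are medians and dashed lines mark 1.5-fold. The Smarca-type ATPases have medians of 0.67 and 0.93 against NT, and the BAF and PBAF subunits lie around 0. The left and middle panels share the NT library.

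The 7 other ARID genes encode DNA-binding proteins outside BAF and held the member that stood lowest in IWR1 against NT. Arid3b, an ARID-domain transcription regulator, had 61.9 FPKM in IWR1, 97.6 FPKM in Y27 and 108 FPKM in NT. IWR1 was well below the other libraries, with counts 1.78-fold lower than NT (1.67 to 1.91), and Y27 was 1.16-fold lower (1.09 to 1.23). Arid3a, its paralogue, had 15.1, 20.1 and 19.5 FPKM, again lowest in IWR1, at 1.31-fold lower than NT (1.16 to 1.48) with Y27 at 1.01-fold lower (0.900 to 1.13).

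Arid4b and Arid4a, whose products bind the retinoblastoma protein and the Sin3 corepressor, were lowest in NT. Arid4b had 5.75 FPKM in IWR1, 8.33 FPKM in Y27 and 2.94 FPKM in NT, with folds over NT of 1.90 (1.496 to 2.44) and 2.71 (2.16 to 3.43). Arid4a had 3.30, 5.30 and 2.64 FPKM, with folds of 1.23 (0.917 to 1.64) in IWR1 and 1.92 (1.48 to 2.52) in Y27. The remaining ARID genes were low, with Arid5a at 0.91, 0.51 and 0.58 FPKM, Arid5b at 1.57, 1.25 and 1.11 FPKM and Arid3c at 2.16, 1.88 and 2.41 FPKM in IWR1, Y27 and NT. Their counts of 16.06 to 40 leave wide intervals.

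The 16 methyltransferase and Setd genes had medians of 0.19 in IWR1 over NT and 0.18 in Y27 over NT, and 2 and 3 of them were at least 1.5-fold higher, shares near the 10.8% and 14.9% of all genes. All 8 Kmt genes had a log2 difference above 0 in Y27 over NT and 7 of 8 in IWR1 over NT, where 48.2% and 49.7% of all genes did. Kmt2c, which with Kmt2d writes H3K4 monomethylation at enhancers, had 2.59 FPKM in IWR1, 3.41 FPKM in Y27 and 1.40 FPKM in NT. NT was the lowest library, and counts were 1.81-fold (1.47 to 2.25) and 2.34-fold (1.91 to 2.87) those of NT. Kmt2d had 11.7, 14.4 and 10.5 FPKM, with smaller folds of 1.09 (1.01 to 1.18) in IWR1 and 1.31 (1.22 to 1.41) in Y27.

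Kmt2a had 11.4, 13.1 and 8.87 FPKM in IWR1, Y27 and NT and Kmt2b, needed for H3K4 methylation at bivalent promoters in mouse embryonic stem cells, had 20.3, 20.9 and 18.1 FPKM. Both were under 1.5-fold in both comparisons. Kmt2e, a SET-domain relative with little enzyme activity known, had 6.09, 7.53 and 4.17 FPKM, with folds over NT of 1.43 (1.18 to 1.75) and 1.73 (1.43 to 2.09). Among the H4K20 enzymes, Kmt5a had 49.1, 48.4 and 45.6 FPKM and Kmt5c had 26.96, 31.1 and 26.8 FPKM, each close between libraries. Kmt5b had 9.39, 11.3 and 7.59 FPKM in IWR1, Y27 and NT and was lowest in NT, with folds over NT of 1.27 (1.04 to 1.54) in IWR1 and 1.48 (1.23 to 1.79) in Y27.

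Setd2, which writes H3K36 trimethylation along transcribed genes, had 13.8 FPKM in IWR1, 18.1 FPKM in Y27 and 8.07 FPKM in NT. Y27 was highest and NT lowest, with folds of 1.67 (1.47 to 1.90) in IWR1 and 2.15 (1.90 to 2.42) in Y27. Setd5, the Setd gene with the highest mean level, had 46.6, 50.9 and 38.7 FPKM, with folds of 1.18 and 1.26 over NT. The paralogues Setd1a (32.4, 32.4 and 28.9 FPKM) and Setd1b (5.38, 6.71 and 5.88 FPKM), which write H3K4 trimethylation, were under 1.5-fold in both comparisons. Setd4 had 4.70, 6.24 and 6.75 FPKM and was 1.46-fold lower in IWR1 than in NT, with an interval of 1.00 to 2.16.

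The 17 demethylase genes past the filter had medians of 0.15 in IWR1 over NT and 0.18 in Y27 over NT, and 2 and 5 were at least 1.5-fold higher, beside 10.8% and 14.9% of all genes. The share in IWR1 was near that of all genes. Kdm1a (Lsd1), a flavin-dependent H3K4 demethylase, had the highest level of the family, 94.3 FPKM in IWR1, 90.3 FPKM in Y27 and 94.2 FPKM in NT. Its paralogue Kdm1b had 8.82, 12.4 and 5.74 FPKM, with NT lowest and folds over NT of 1.51 (1.23 to 1.84) and 2.07 (1.71 to 2.51). On the log2 scale with the pseudocount Kdm1b did not pass 1.5-fold in IWR1.

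Kdm7a, a Jumonji demethylase of H3K9 and H3K27, had 2.82 FPKM in IWR1, 5.29 FPKM in Y27 and 1.95 FPKM in NT. Y27 stood apart from the other libraries, with folds over NT of 2.60 (2.08 to 3.28) in Y27 and 1.41 (1.10 to 1.83) in IWR1. Kdm6a (Utx), the X-linked H3K27 demethylase, had 13.9, 16.1 and 7.88 FPKM in IWR1, Y27 and NT, with folds over NT of 1.73 (1.47 to 2.03) and 1.95 (1.67 to 2.29). Its paralogue Kdm6b had 25.6, 22.5 and 25.5 FPKM and was lowest in Y27, at 1.19-fold lower than NT (1.08 to 1.302).

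The H3K4 demethylase genes of the Kdm5 group differed among themselves. Kdm5a had 10.7 FPKM in IWR1, 14.8 FPKM in Y27 and 8.83 FPKM in NT, a fold over NT of 1.60 (1.44 to 1.78) in Y27. The Y-linked Kdm5d had 6.19, 8.02 and 4.36 FPKM, 1.76-fold (1.43 to 2.19) the NT counts in Y27 and 1.40-fold (1.12 to 1.75) in IWR1. Its X-linked counterpart Kdm5c had 27.5, 26.4 and 25.9 FPKM, and Kdm5b had 53.1, 46.7 and 49.5 FPKM, so neither differed by as much as 1.5-fold.

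In the Kdm4 group, whose products act on H3K9 and H3K36, Kdm4c had 21.0 FPKM in IWR1, 19.9 FPKM in Y27 and 13.6 FPKM in NT, with folds over NT of 1.52 (1.32 to 1.75) and 1.41 (1.22 to 1.63). Kdm4a had 32.0, 28.0 and 27.7 FPKM, and Kdm4b had 12.2, 13.9 and 14.8 FPKM, which was 1.24-fold lower in IWR1 than in NT (1.06 to 1.44). The 5 demethylase genes Kdm2a, Kdm2b, Kdm3a, Kdm3b and Kdm8 lay under 1.5-fold in both comparisons.

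Fewer of these genes passed 1.5-fold between the inhibitor-treated libraries than between either of them and NT. In IWR1 over Y27, 2 of 65 genes were at least 1.5-fold higher (5.06% of all genes compared), 4 were 1.5-fold lower (8.2%), and 0 passed 2-fold higher (1.38%) or lower (2.9%). Chd9 was 1.56-fold higher in IWR1 (1.35 to 1.81), and Arid5a was 1.82-fold higher (0.949 to 3.56), an interval that holds 1. Lower in IWR1 were Kdm7a at 1.83-fold (1.502 to 2.25), Arid4a at 1.57-fold (1.23 to 2.02), Arid3b at 1.54-fold (1.44 to 1.65) and Smarca1 at 1.53-fold (1.26 to 1.88). The median of the 65 was -0.09, against 0.00 over all genes.

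Differences between the libraries followed the base composition and length of the transcripts over all genes. Those of the remodeller and histone enzyme genes sloped the same way. With the length and GC trend removed together, their median against NT lay above that of all genes. A cubic surface on GC content and log2 length took up 20.03% of the variance of the log2 difference over all genes in IWR1 over NT, 38.1% in Y27 over NT and 5.12% in IWR1 over Y27. GC content alone took up 17.1%, 31.5% and 3.79% in those comparisons, and length alone 4.95%, 10.7% and 1.75%. The 65 genes had long transcripts, with a median of 5780 bases against 2886 over all genes, and a median GC content of 51.4% against 50.5%. Across the 65 genes, Spearman's rho between GC content and the log2 difference was -0.77 in IWR1 over NT, against -0.43 over all genes, and -0.76 in Y27 over NT, against -0.51. With length, rho was 0.32 and 0.34 across the 65 genes, against 0.26 and 0.34 over all genes. These are descriptions across genes, which share the same libraries and are not independent replicates, and the NT library is common to both comparisons.

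**Figure D3:**
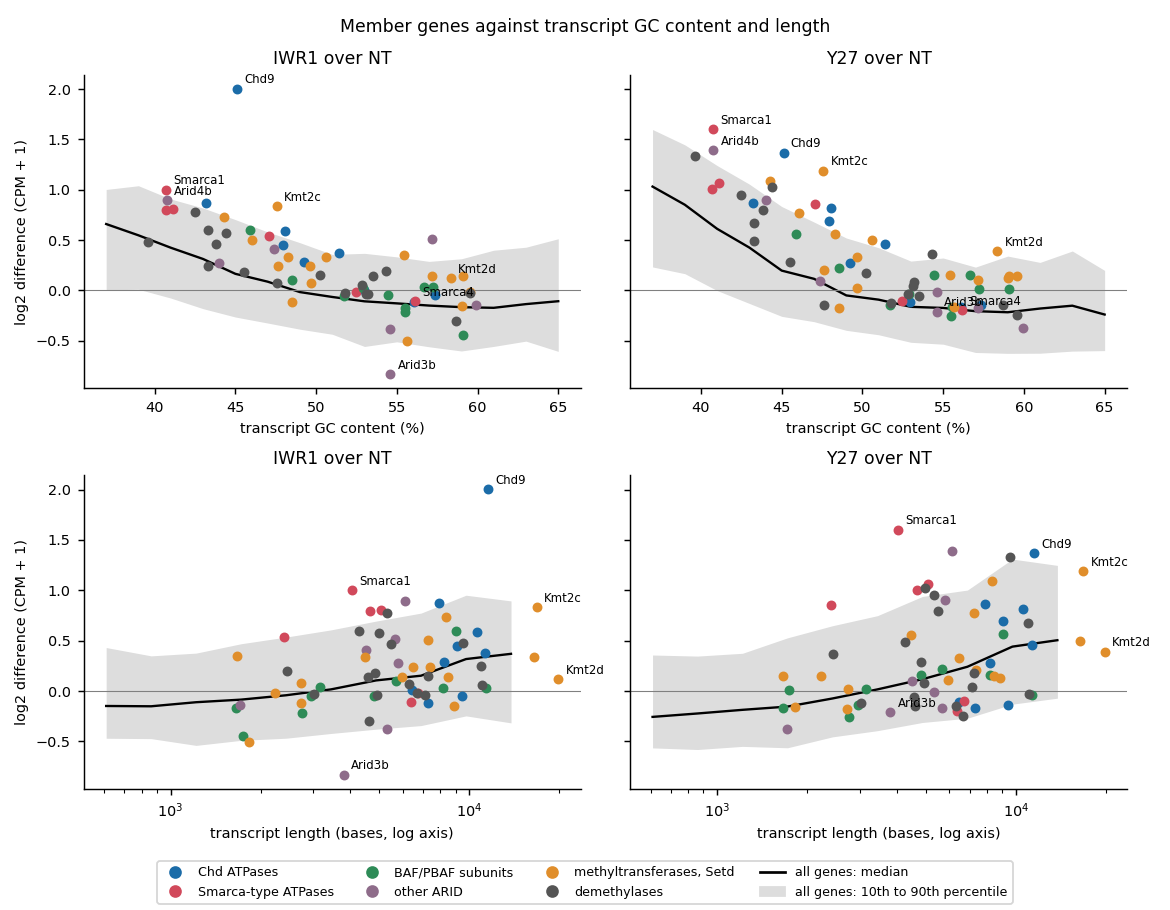
Log2 differences (CPM + 1) of the 65 genes against transcript GC content in percent (upper panels) and transcript length in bases on a log axis (lower panels), for IWR1 over NT and Y27 over NT. The line is the median of all genes compared and the band runs from their 10th to 90th percentile; GC-poor genes such as Smarca1 lie high, and Chd9 lies above and Arid3b below the band in IWR1 over NT.

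All genes were split into 4 bins of equal size by transcript GC content, and the members at least 1.5-fold higher in IWR1 or Y27 than in NT all lay in the bins with less GC. In the lowest bin, under 45.8% GC, 9 of 15 members were 1.5-fold higher in IWR1 than in NT (26.9% of all genes in that bin), and 13 of 15 in Y27 (40.7%). In the next bin, up to 50.5% GC, the counts were 3 of 16 in IWR1 (8.05% of all genes) and 5 of 16 in Y27 (10.5%). Above that, 0 of the 34 members were 1.5-fold higher in either, which is near the low shares of all genes there. Those shares were 4.15% and 3.90% in the upper bins in IWR1, and 4.09% and 3.68% in Y27. Median log2 differences of the members by bin, GC-poorest first, were 0.73, 0.31, -0.02 and -0.05 in IWR1 over NT, against 0.32, 0.03, -0.10 and -0.15 over all genes. In Y27 over NT they were 1.00, 0.30, -0.03 and -0.14, against 0.45, 0.02, -0.14 and -0.20.

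**Figure D4:**
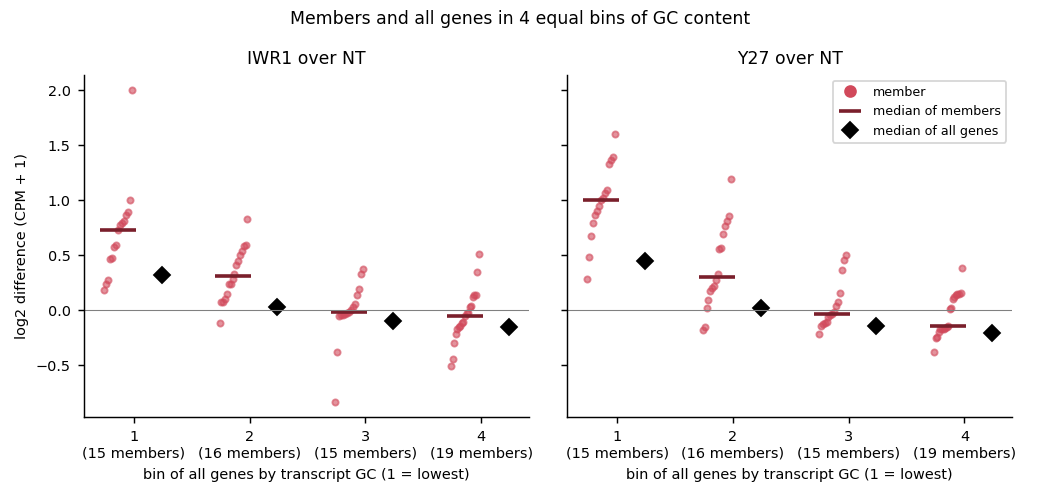
Log2 differences (CPM + 1) of the 65 genes in 4 equal bins of all genes by transcript GC content, for IWR1 over NT and Y27 over NT. Points are genes, bars their medians and black diamonds the medians of all genes in that bin; the members' median goes from 0.73 in the GC-poorest bin to -0.05 in the GC-richest in IWR1 over NT, and from 1.00 to -0.14 in Y27 over NT.

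Of the 65 members, 48 were in the longest of 4 equal bins of transcript length, over 4311 bases. There 13 members were also in the GC-poorest bin, with a median log2 difference of 0.73 in IWR1 over NT, against 0.48 over the 1021 genes alike in both respects, and of 1.00 in Y27 over NT, against 0.72. The 35 long members with more GC had medians of 0.12 and 0.13, against 0.04 and 0.05 over 2200 such genes. Kmt2d had the longest transcript of all members, 19827 bases with 58.4% GC, and a log2 difference of 0.12 in IWR1 over NT and 0.39 in Y27 over NT. In the coding sequence and the 3′ untranslated region the relation with composition was like that of the transcript, with rho of -0.70 and -0.69 for GC of the coding sequence and -0.61 and -0.62 for GC of the 3′ untranslated region. For promoter GC, known for 49 members, it was -0.14 and 0.02. Whether the trend comes with the treatments or with the making of the libraries cannot be told apart with 1 library a group.

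With the length and GC trend of all genes taken out, 2 of 65 members were past 1.5-fold higher in IWR1 over NT (7.32% of all genes so treated) and 1 was lower (5.43%). For Y27 over NT there were 7 higher (9.14%) and 0 lower (4.01%), and for IWR1 over Y27 2 higher (4.91%) and 1 lower (7.36%). The members' median log2 difference was then 0.10 in IWR1 over NT and 0.18 in Y27 over NT, against 0.03 in each over all genes. Above 0 were then 47 of 65 members in IWR1 over NT and 48 in Y27 over NT. Over all 12825 genes so treated, 6909 and 7016 were above 0. The removal kept the mean fitted value, so 0 is not the level of the trend itself. Chd9 kept a log2 difference of 1.62 in IWR1 over NT, beside 2.00 as measured, and 0.78 in Y27 over NT, beside 1.37. Arid3b remained lower in IWR1, at -0.69 beside -0.83. Smarca1 had 0.58, just under the 1.5-fold line, beside 1.00 in IWR1, and 0.99 beside 1.60 in Y27.

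Others lost most of their difference. Smarca5 had a log2 difference in Y27 over NT of 0.33 after removal, beside 1.00 as measured, and Kdm7a had 0.21, beside 1.33. Chd1 had 0.23 in Y27 over NT, beside 0.87, and Kdm5a turned to -0.08, beside 0.67. Smarca2 did not move, at 0.86 beside 0.85. The members past 1.5-fold in Y27 after removal were Smarca1, Smarca2, Chd9, Kmt2c (0.68), Kdm1b (0.66), Arid4b (0.61) and Kdm8 (0.61), of which Kdm8 rested on 60 counts in Y27 and 46 in NT and had a fold interval of 0.885 to 1.98. Arid5a, the other gene past 1.5-fold in IWR1, rested on 29.25 expected counts in IWR1 and 19.01 in NT.

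**Figure D5:**
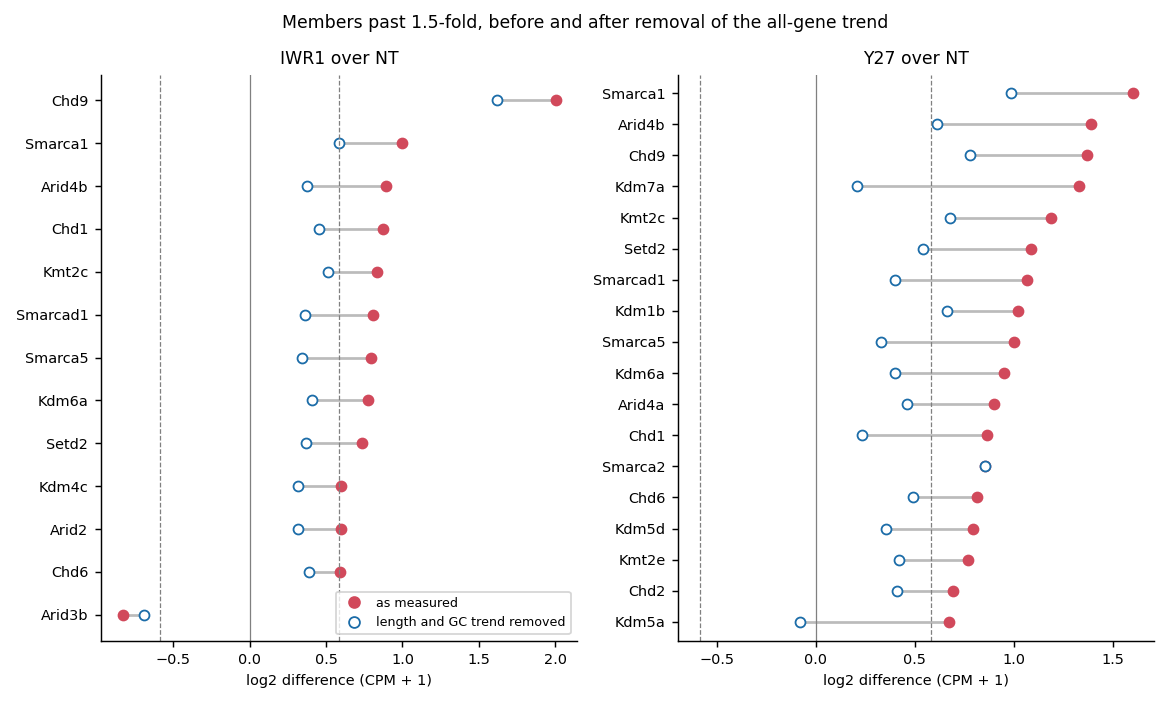
Log2 differences (CPM + 1) of the members past 1.5-fold in IWR1 over NT (left) and Y27 over NT (right), as measured (filled) and with the all-gene trend on length and GC content removed (open); dashed lines mark 1.5-fold. Chd9 keeps 1.62 of 2.00 in IWR1 over NT, and Kdm7a keeps 0.21 of 1.33 in Y27 over NT.

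Genes for partners of these proteins were set beside them. Of 17 BAF partner genes past the filter, 1 was 1.5-fold higher in each comparison with NT (10.8% and 14.9% of all genes in IWR1 and Y27), with medians of -0.14 and -0.16. It was Pbrm1, the PBAF bromodomain subunit, which had 18.5 FPKM in IWR1, 22.9 FPKM in Y27 and 10.5 FPKM in NT, folds of 1.74 (1.55 to 1.94) and 2.10 (1.88 to 2.34). None of the 11 NuRD partner genes passed 1.5-fold, with medians of -0.18 in both comparisons. Over all genes 10.8% and 14.9% were higher in IWR1 and Y27, and 6.37% and 5.53% lower. With 11 genes, 0 is near those shares. Of 17 genes for ISWI partners, INO80 family proteins and other remodelling ATPases, 4 were 1.5-fold higher in IWR1 (10.8% of all genes) and 5 in Y27 (14.9%). They were Bptf and Rsf1, which partner ISWI ATPases, and Atrx and Hells, which belong to neither family, with Cecr2 added in Y27 and named after its values were seen. With the length and GC trend removed, 1 of the 17 was 1.5-fold higher in each, Bptf in IWR1 and Atrx in Y27. Of the BAF partner genes 0 then were, beside 7.32% and 9.14% of all genes so treated. Atrx, a remodeller of heterochromatin, had 15.2, 26.8 and 7.02 FPKM in IWR1, Y27 and NT. Hells, a remodeller needed for DNA methylation, had 45.6, 54.96 and 20.8 FPKM in IWR1, Y27 and NT. Atrx counts were 2.12-fold (1.89 to 2.39) and 3.66-fold (3.28 to 4.09) those of NT, in a transcript of 39.5% GC.

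Of 12 COMPASS partner genes, which assist the H3K4 methyltransferases, 1 passed 1.5-fold higher in each comparison (10.8% and 14.9% of all genes), with medians of -0.04 and -0.08. That gene, Psip1, had 123, 141 and 74.0 FPKM in IWR1, Y27 and NT. With the length and GC trend removed, 0 of the 12 passed in IWR1 and 1 in Y27 (7.32% and 9.14% of all genes so treated). Of 27 other histone lysine enzyme genes, 3 were 1.5-fold higher and 1 lower in IWR1, and 4 higher and 1 lower in Y27. The shares higher were close to those of all genes (10.8% and 14.9%), and 6.37% and 5.53% of all genes were lower. Jmjd1c, a relative of the Kdm3 demethylases, had 29.5, 38.2 and 14.01 FPKM, and the Y-linked Uty, the counterpart of Kdm6a, had 5.07, 6.86 and 2.03 FPKM, both lowest in NT. With the length and GC trend removed, log2 differences in IWR1 and Y27 over NT were 0.38 and 0.29 for Uty, beside 1.22 and 1.61. For Jmjd1c they were 0.64 and 0.76, beside 1.05 and 1.38. Jarid2, the other gene higher in IWR1, had 0.65 there after removal, beside 0.64. The gene lower in both comparisons was Hr, a nuclear corepressor with a Jumonji domain, at 0.35, 0.49 and 0.93 FPKM from 11, 15 and 30 counts. Its counts were 2.70-fold lower than NT in IWR1 (1.32 to 5.97) and 1.97-fold lower in Y27 (1.03 to 3.95).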

How the data were processed

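RNA-seq tables of 3 libraries, 1 per group as the labels give them, were used. Per the file headers, the authors deposited for each gene a transcript length, an expected count (estimated reads, not normalized) and an FPKM value (counts per kilobase of that length, scaled to the library). Per the submitters' processing notes, Bowtie 0.12.2 and mm8 were used; which program made the estimates is not given in the sources. FPKM values recomputed from the deposited counts came within 2% for all members with over 50 counts. A gene missing from a table but listed in another was taken as 0.

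CPM values were made with TMM factors (0.998, 1.02 and 0.980 in IWR1, Y27 and NT) from edgeR 4.0.16 in R 4.3.3, with a pseudocount of 1 CPM. Expected counts were rounded for the exact binomial 95% intervals. Symbols matched for 99.7% of identifiers in RefSeq GRCm38.p6, and GC content came from GENCODE vM21 transcripts for 99.0% of the genes compared; no coordinates on mm8 are given. Other steps ran in Python 3.11.15 (scipy 1.17.1, numpy 2.4.6, matplotlib 3.10.9, pandas 2.3.3), and the steps were tested on simulated data.

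Members and lists were chosen with earlier results of these data known. Described in full were the 2 members of each family with the highest FPKM, those past 1.5-fold against NT or, failing 5 in a direction, the 5 that differed most, the 3 that differed most each way in IWR1 over Y27, members under the filter, paralogue groups, and up to 4 genes of each partner list by size of difference. Alternatives were pseudocounts, scalings (DESeq2 1.42.0 size factors among them), level filters, whole counts alone, deposited FPKM and removal of the length or GC trend.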

Additional observations from a re-analysis of the deposited data

How the results depend on the processing

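No paired analysis was possible because each group had 1 library. The members' median log2 difference ranged over the alternatives from 0.03 to 0.20 in IWR1 over NT, from -0.02 (length trend alone removed) to 0.32 in Y27 over NT, and from -0.12 to -0.00 in IWR1 over Y27. The counts moved more. Of the 12 members at least 1.5-fold higher in IWR1 over NT, the count was 2 with the length and GC trend removed, 7 with length alone and 5 with GC alone removed; the 1 lower became 2 with a pseudocount of 0.1 CPM. The 2 members 2-fold higher became 1 with a pseudocount of 5 CPM, DESeq2 size factors, upper-quartile scaling, deposited FPKM or any trend removed. In Y27 over NT the 18 became 7 with both trends removed, and the 9 at 2-fold became 0 with both, 2 with the length and 3 with the GC trend removed. In IWR1 over Y27 the 2 higher became 1 with a pseudocount of 5 CPM, a mean of at least 5 CPM or whole counts alone, and 0 with deposited FPKM. The 4 lower became 2 with a pseudocount of 5 CPM, 1 with both trends removed and 2 with either alone. The log2 difference of Kdm5a in Y27 over NT reversed to -0.080 with both trends removed. Over the 47 differences of named genes and all alternatives, 476 values kept within the counting interval, 73 moved beyond it and 1 reversed. These 47 do not take in every difference of the members, and some smaller ones changed sign too. With both trends removed, Kdm7a in IWR1 over NT went from 0.48 to -0.25 and Kdm5a from 0.24 to -0.25. Apart from the trend removals, whose construction takes out what follows length and GC, the cause was not tested. Counting intervals were widest for genes under about 30 counts (Arid5a, Arid3c, Smarcd3), and spread between cultures was not measured.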
